A study of Mus musculus with 2 samples.

Results

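Kinesins are the motor proteins described here, in total RNA of hippocampus from aged mice. A gene was taken as a member when its symbol began with Kif followed by a digit or the letter c, or was Klc1 to Klc4, and when at least 1 of its transcripts was annotated as protein-coding. The rule gave 47 genes of 55536 in the tables. It left out 4 genes with matching names and no protein-coding transcript, Kif16bos, Kif22-ps, Kif4-ps and Kifc5c-ps, which were at 0 counts in both libraries. The members were sorted by their known work into 17 transport motors, 4 kinesin light chains, 14 mitotic motors, 6 motors of the cilium and 6 others.

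The tissue came from female B6CASTF1/J mice, the F1 cross of the C57BL/6J and CAST/EiJ strains, aged 18 to 20 months. There was 1 group, with 2 libraries made from 300 ng of RNA each, depleted of ribosomal RNA and carrying ERCC spike-ins. The labels number them as biological replicates 1 and 2, with separate biosample labels and the same donor label, which leaves it unclear if 2 animals were used. No treatment or genotype was compared, so no p-value is given, and every difference below describes these 2 libraries.

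Kinesins walk along microtubules using ATP. In neurons most cargo leaves the cell body towards the axon tip on plus-end-directed kinesins, and cytoplasmic dynein, with its activator dynactin, carries cargo back. Kinesin-1 is built from heavy chains of the Kif5 genes and light chains of the Klc genes, kinesin-2 from Kif3 motors with the adaptor Kifap3, and kinesin-3 from the Kif1, Kif13 and Kif16 genes. A separate set of kinesins builds the spindle, moves chromosomes and completes cytokinesis, and is known for its high level in dividing cells. Mature neurons do not divide, which makes the transport and mitotic members a natural pair to set side by side in hippocampus.

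Replicate 1 held 35358099 gene-assigned counts and replicate 2 held 36307276. Levels are given as TPM, a transcript abundance corrected for length and for library size, from the gene table whose columns are those of RSEM, unless the kallisto-layout table is named. TPM was not rescaled between the libraries. The summed TPM of protein-coding genes was 446192.6 in replicate 1 and 429152.4 in replicate 2, so small TPM differences can differ in direction from those of scaled counts. A member was called detected at 1 TPM or more in both libraries. Excitatory neuron markers were present at high level, with 5 of 5 detected and Camk2a at 1333 and 1278 TPM in replicates 1 and 2. Astrocyte, microglia and endothelial markers were detected for 4 of 4 genes each, with log2 ratios of replicate 2 over replicate 1 between -0.05 and 0.26. The libraries differed more in markers of other cells. All 6 meningeal fibroblast markers were higher in replicate 2, with log2 ratios of 1.02 to 1.31, and all 5 oligodendrocyte markers were lower, with log2 ratios of -0.41 to -0.25. All 5 markers of motile-cilium cells were also lower, with log2 ratios of -0.88 to -0.19. They rest on few reads, with list sums of 454 and 370 counts, and the -0.88 of Dynlrb2 on 16 and 8. Lower too were 4 of 5 choroid plexus markers, among them Ttr with a log2 ratio of -1.55. In bulk tissue, fewer cells of a type and less RNA per cell cannot be told apart.

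Of the 47 members, 31 were detected, or 66.0%, against 57.8% of the 22028 protein-coding genes. Detection followed role closely, with the roles set when earlier results of these data were known. All 17 transport motors and all 4 light chains were detected, as were 4 of 6 cilium motors, 4 of 6 others and 2 of 14 mitotic motors. The median transport level was 49.0 TPM in replicate 1 and 47.2 in replicate 2, or 48.1 ± 1.29 (SD, n = 2). The median mitotic level was 0.22 and 0.28 TPM, or 0.25 ± 0.042 (SD, n = 2). For comparison, the median over all protein-coding genes was 3.30 and 3.23 TPM. The ratio of the transport to the mitotic median was 223 in replicate 1 and 169 in replicate 2, or 196 ± 38.4 (SD, n = 2). It was 117 in the kallisto layout and 125 over members reaching a mean of 10 counts. The lowest transport motor, Kif16b, was 1.45 times the highest mitotic member, Kif22, in mean TPM, so the ranges of the 2 roles, as assigned here, did not overlap. That rests on Kif2a, which also works at the spindle, being placed among the others, since its mean TPM was 9.20 times that of Kif16b. With Kif2a counted as mitotic, an alternative added after seeing the data, the ratio of medians was 188.

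**Figure D1:**
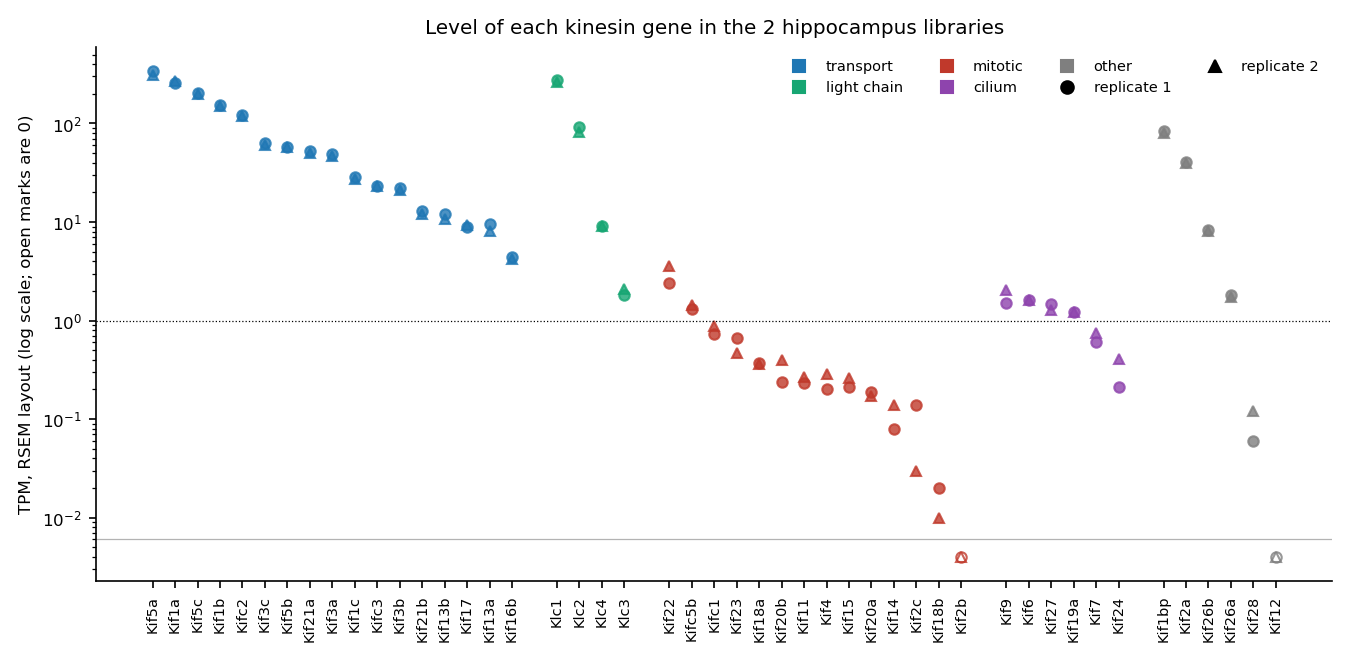
TPM of each kinesin gene (vertical axis, log scale) in replicate 1 (circles) and replicate 2 (triangles), sorted by mean level within each role, with a dotted line at 1 TPM and open marks for genes at 0. Every transport motor lies above 4 TPM, while 12 of 14 mitotic motors lie under 1 TPM in both libraries.

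The summed TPM of the members was 1948 in replicate 1 and 1882 in replicate 2. Transport motors made up 73.0% and 73.2% of it, light chains 19.5% and 19.1%, the other members 6.89% and 6.87%, mitotic motors 0.349% and 0.442%, and cilium motors 0.341% and 0.390%. In counts, transport motors took 0.615% of the gene-assigned counts of replicate 1, with an exact (Clopper-Pearson) 95% interval of 0.613 to 0.618%, and 0.613% of replicate 2. Mitotic motors took 0.000747% in replicate 1, from 264 counts, with an interval of 0.000659 to 0.000842%. In replicate 2 they took 0.000813%, from 295 counts, with an interval of 0.000722 to 0.000911%. These intervals cover counting error alone. The 5 highest members, Kif5a, Klc1, Kif1a, Kif5c and Kif1b, held 63.1% and 63.4% of the summed TPM.

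Of the kinesin-1 heavy chains, Kif5a was the highest member in the RSEM layout, and Kif5c stood below Klc1 and Kif1a. Kif5a, the neuronal heavy chain, which lies on chr10:127225696-127263348 (mm10, minus strand), was at 339 TPM in replicate 1 and 312 in replicate 2. Its mean ranked 117 among the 22028 protein-coding genes. Kif5c, the other neuron-enriched heavy chain, was at 203 and 197 TPM and ranked 269. Kif5b, the heavy chain found in most tissues, was at 58.4 and 57.2 TPM. All 3 heavy chains were well above the detection limit in both libraries, and their order was the same in each. Kif5a made up 56.4% and 55.1% of the summed Kif5 TPM, Kif5c 33.9% and 34.8%, and Kif5b 9.72% and 10.1%. The mean shares were 55.8% ± 0.90 for Kif5a, 34.3% ± 0.64 for Kif5c and 9.91% ± 0.26 for Kif5b (SD, n = 2).

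The light chains, which link kinesin-1 heavy chains to cargo, were led by Klc1. Klc1 was at 275 TPM in replicate 1 and 266 in replicate 2, rank 162 among protein-coding genes. Klc2 was at 93.0 and 82.2 TPM. Klc4 was far lower, at 9.03 and 9.06 TPM, and Klc3 was lowest, at 1.81 and 2.11 TPM from 77 and 96 counts. The ranges of the 4 light chains did not overlap. Klc1 held 73.3% ± 0.97 of the summed light-chain TPM, Klc2 23.7% ± 1.15, Klc4 2.45% ± 0.099 and Klc3 0.532% ± 0.078 (SD, n = 2). The summed Kif5 level was 600.3 and 567 TPM against 379 and 359 TPM for the light chains, a ratio of 1.58 in each library. In the kallisto-layout table the same ratio was 2.04 and 2.06, so the excess of heavy-chain RNA had the same direction in both layouts and a different size.

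Among kinesin-3 genes, Kif1a, the motor of synaptic vesicle precursors, was at 257 TPM in replicate 1 and 268 in replicate 2. Kif1b, which carries synaptic vesicle precursors and mitochondria in different isoforms, was at 155 and 150.4 TPM. Kif1c, the more widely expressed member of the same family, was at 28.4 and 27.6 TPM. The remaining kinesin-3 genes were low. Kif13b was at 11.98 and 10.7 TPM, Kif13a at 9.46 and 8.06, and the endosome motor Kif16b at 4.46 and 4.26, the lowest of the transport motors. Kif1a was thus 57.7 times Kif16b in replicate 1 and 62.9 times in replicate 2.

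Kinesin-2 works as a Kif3a motor paired with Kif3b or Kif3c, or as a Kif17 homodimer. Kif3a was at 49.0 TPM in replicate 1 and 47.2 in replicate 2. Its partners were unequal, with Kif3c at 63.7 and 60.9 TPM and Kif3b at 21.9 and 21.02. Kif3c RNA was therefore 2.91 and 2.90 times that of Kif3b. The sum of the partners was 85.6 and 81.9 TPM, or 1.75 and 1.74 times Kif3a. Kifap3, the adaptor that binds the Kif3 pair, was at 69.2 and 69.9 TPM, between Kif3a and the sum of its partners. In the kallisto-layout table Kif3a was relatively higher, and the partners summed to 1.18 and 1.21 times Kif3a while Kifap3 was 0.960 and 1.04 times Kif3a. Kif17, known for carrying NMDA receptor vesicles in dendrites, was at 8.85 and 9.26 TPM.

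The kinesin-14 genes Kifc2 and Kifc3 encode minus-end-directed motors. Kifc2, known from brain, was at 122 and 118 TPM, the fifth of the transport motors. Kifc3 was at 23.0 and 23.4 TPM. Of the kinesin-4 pair, Kif21a was at 52.9 and 50.1 TPM and Kif21b at 12.9 and 11.95. In the order of transport levels, Kif17 and Kif13a changed places between the libraries, so their order was not resolved. Kif21b was above Kif13b in both libraries, although their ranges overlapped, and the ranges of all other neighbours were separate.

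All motor partners on the lists used here were detected, against 57.8% of protein-coding genes. The lists were chosen with earlier results of these data known and do not hold every partner. From the dynein motor list, 9 of 9 subunits were detected, with the light chains Dynll1 at 324 and 299 TPM and Dynll2 at 202 and 202 TPM highest, and the light intermediate chain Dync1li1 lowest at 40.1 and 36.3. The dynein heavy chain Dync1h1, the motor subunit itself, was at 114 and 108 TPM, so the summed Kif5 level was 5.26 and 5.22 times it. From the dynactin list, 9 of 9 were detected, with Dctn1 at 161 and 155 TPM and Actr1b at 115 and 101 highest, and Dctn4 lowest at 39.6 and 38.1. All 20 kinesin adaptors and regulators were detected. The highest were Mapk8ip3, a scaffold that binds kinesin-1, at 157 and 147 TPM, and the related scaffold Mapk8ip1 at 148 and 136. Grip1, which links kinesin-1 to AMPA receptors, was lowest at 10.3 and 9.12 TPM.

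Mitotic motors were near the limit of the assay. Of 14, 13 had a mean count under 50, so their values rest on few reads. Kif22, a chromosome-arm motor on chr7:127027729-127042471 (mm10, minus strand), was highest at 2.41 TPM in replicate 1 and 3.61 in replicate 2, from 19 and 23 counts. That level does not describe the full-length message. A retained-intron transcript of 295 bases, Kif22-205, held 62.5% and 87.3% of its RSEM-layout TPM from 7.52 and 16.8 expected counts, and it was at 0 in both libraries of the kallisto layout. The full-length protein-coding Kif22-201 held 1.85% and 0.60% of the RSEM-layout TPM.

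Kifc5b was at 1.32 and 1.43 TPM, from 64 and 75 counts, and was the other mitotic member to be detected. Kifc1, the minus-end motor that helps focus spindle poles, was at 0.73 and 0.88 TPM, from 36 and 35 counts. These genes are near-identical copies. Of the 31-base words in the annotated Kifc5b transcripts, 49.9% also occur in Kifc1, and 53.2% of those of Kifc1 occur in Kifc5b. Outside this pair, at most 0.457% of a member's words occur in another member, and 33 of 47 members share none. The deposited posterior SD of the count was 3.16 for each of the pair in replicate 1. The expected counts there were 63.85 for Kifc5b and 36.15 for Kifc1. By that measure, how reads were split between them is uncertain by a few counts.

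The other mitotic members were each under 1 TPM in both libraries. Kif23, a motor of the central spindle, was at 0.66 and 0.47 TPM, from 16 and 8 counts. Kif18a, which limits chromosome movement at the metaphase plate, was at 0.37 and 0.36 TPM. Kif20b was at 0.24 and 0.40 TPM, and Kif11, the motor that pushes spindle poles apart, at 0.23 and 0.27. Kif4 was at 0.20 and 0.29 TPM, Kif15 at 0.21 and 0.26, Kif20a at 0.19 and 0.17, and Kif14 at 0.08 and 0.14. The microtubule depolymerase Kif2c was at 0.14 and 0.03 TPM, from 4 and 2 counts, and Kif18b at 0.02 and 0.01, from 2 and 1. Kif2b had no count in either library, which at a floor of 3 counts allows up to 0.0848 and 0.0826 CPM. Markers of dividing cells were as low, with 0 of 9 detected and list sums of 169 and 133 counts. Among the 9, Cenpe encodes a mitotic kinesin that the naming rule did not match, and it held 67 and 69 of those counts. Mki67, the proliferation antigen, was at 0.08 and 0.07 TPM, from 20 and 13 counts.

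Promoter letters were then compared between the roles, which the choice of members did not use. RefSeq promoter windows on GRCm38.p6, 250 bases before to 50 bases after each start site, were matched for 37 of 47 members. After the levels were known, 7 motifs were searched on both strands, namely TTTGAA with its variant TTCGAA, the CCAAT box, the E2F forms TTTCCCGC and TTTGGCGC, the repeat CGCGCG and the TATA box TATAAA. The motif TTTGAA is the core of the cell-cycle genes homology region, an element known from promoters of genes that are kept low in resting cells. It was present in 11 of 13 mitotic windows, against 17.9% of all 32851 windows. It was present in 1 of 13 transport windows and 0 of 3 light-chain windows. It was also in 1 of 6 cilium windows and 1 of 6 windows of the other members. The 13 transport windows came from 11 genes, whereas the 13 mitotic windows came from 13 genes. The transport motors Kif5a, Kif5b, Kif13b, Kif21b, Kifc2 and Kifc3 had no promoter entry, so the transport value does not cover them. In 9 of the 13 mitotic windows a copy began within 60 bases of the start site, a distance chosen after the positions were seen, against 5.50% of all windows. Those 9 genes are shown first because the element sits at a similar place in them. Each line gives 30 bases 5′ to 3′ on the gene's strand, with the element in capitals, read as TTTGAA or, on the opposite strand, as TTCAAA.
Kif11: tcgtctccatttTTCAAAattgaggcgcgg
Kif15: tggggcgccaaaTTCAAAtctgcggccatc
Kif22: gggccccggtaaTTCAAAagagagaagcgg
Kifc1: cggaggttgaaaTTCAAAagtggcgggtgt
Kifc5b: cggaggttgaaaTTCAAAagtgactggtgt
Kif23: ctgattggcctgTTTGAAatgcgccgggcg
Kif18b: cggaccggctagTTTGAAcgcgccgcgccg
Kif20b: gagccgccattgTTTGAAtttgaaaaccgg
Kif4: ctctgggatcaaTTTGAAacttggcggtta

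The windows printed are chr19:37376351-37376380 for Kif11, chr9:122951050-122951079 for Kif15, chr7:127042420-127042449 for Kif22, chr17:33890615-33890644 for Kifc1 and chr17:26917108-26917137 for Kifc5b. They are chr9:61946780-61946809 for Kif23, chr11:102925104-102925133 for Kif18b, chr19:34922353-34922382 for Kif20b and chrX:100626072-100626101 for Kif4. Kif22, Kifc1, Kif23 and Kif18b lie on the minus strand and the other 5 on the plus strand. Counted from the RefSeq start site, the element began at -19 in Kif11 and Kif15 and at -17 in Kif22. It began after the start in Kifc1 (2), Kif23 (3), Kif18b (4), Kif20b (8, with a second copy at 14), Kif4 (20) and Kifc5b (30). In GENCODE M21 the element of Kif11 and Kif23 lies upstream of the gene, and that of the other 7 lies in an exon of it. The Kifc1 and Kifc5b lines match up to and past the element, as the genes are near-identical copies, and so are not separate instances. With Kifc5b left out, the element was in 10 of 12 mitotic windows, and within 60 bases of the start in 8 of 12.

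The element was farther off in Kif2c, at -103, and in Kif14, at -228, both in a GENCODE intron because the RefSeq start used lies inside the gene. It was not found in the windows of Kif18a and Kif2b, and Kif20a had no entry in the promoter table. Outside the mitotic set, the single transport match was an internal start of Kif1a, at -44, and Kif26b had a copy at -9. These are shown because they carry the same letters in genes at 263 and 8.21 mean TPM.
Kif1a: tttgacagcctcTTTGAAcattgctcctaa
Kif26b: tgggagaatttcTTTGAActcagttagcga

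The Kif1a line is chr1:93082507-93082536 on the minus strand, in an intron in GENCODE M21, and the Kif26b line is chr1:178529104-178529133 on the plus strand, upstream of the gene. The pentamer CCAAT was in 9 of 13 mitotic windows and 4 of 13 transport windows, against 37.4% of all windows. Those 4 transport windows came from 3 genes. TTTGGCGC, a form of the E2F site, was in 2 mitotic windows and in 0.514% of all windows, and TTTCCCGC in none of the members' windows and 1.07% of all. TATAAA was in 1 mitotic and 1 transport window, against 13.6% of all. TTCGAA was found in 1 cilium window and in no window of the other roles, against 1.56% of all, and CGCGCG in 4 transport and 2 mitotic windows, against 11.3% of all. The mitotic and transport windows were alike in CpG content, with medians of 26 and 30 CpG per window against 7 over all. A match is a description of letters and was not tested as a binding site.

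**Figure D2:**
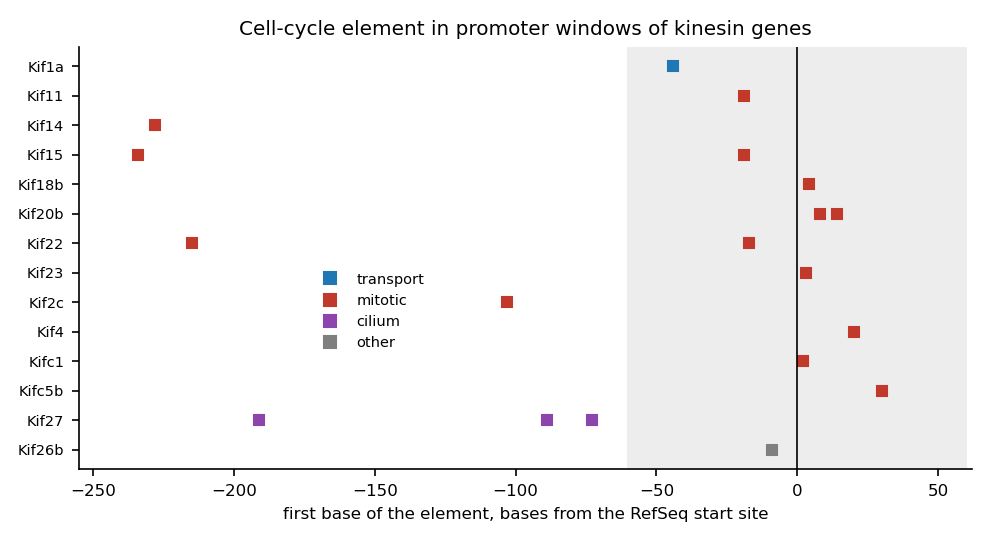
Position of the TTTGAA element, as bases from the RefSeq start site to its first base, for each kinesin gene that holds a copy in its promoter window, with the span of 60 bases either side shaded. Copies of 9 mitotic genes fall in the shaded span, along with those of Kif1a and Kif26b.

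The motors of the cilium were low. Kif9 was at 1.52 TPM in replicate 1 and 2.05 in replicate 2, Kif6 at 1.62 and 1.61, Kif27 at 1.47 and 1.29 and Kif19a, which trims ciliary microtubules, at 1.22 and 1.23. Kif7, a regulator of Hedgehog signalling at the cilium tip, was at 0.60 and 0.74 TPM, and Kif24 at 0.21 and 0.41. Markers of ependymal cells with motile cilia were detected for 3 of 5, with Rsph1 at 6.75 and 5.69 TPM and Foxj1 at 3.01 and 2.24. Those markers were lower in replicate 2 in 5 of 5 cases. Of the 6 cilium kinesins, 4 were higher in replicate 2 and 2 lower. Over all 18350 genes reaching a mean of 10 counts, 9161 were higher and 9189 lower. The exact binomial 95% interval of the fold between libraries held 1 for each of the 6 kinesins, so their directions were not resolved. The part of ependymal cells in the kinesin values was not tested.

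Among the other members, Kif1bp encodes a kinesin-binding protein and no motor, and entered by its name. It was at 83.1 and 80.1 TPM. Kif2a, a depolymerase with a part in both neurons and spindles, was at 41.0 and 39.3 TPM, far from its mitotic relatives Kif2c and Kif2b. Kif26b was at 8.35 and 8.07 TPM and Kif26a at 1.82 and 1.73. Kif28 was at 0.06 and 0.12 TPM, and Kif12 had no count in either library.

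Among members that reached a mean of 50 counts, the shares that differed between the libraries were near or under those of all genes. Members under that depth, such as Kif23 with 16 and 8 counts, are not covered by these shares. After scaling by TMM factors, none of the 31 members that reached a mean of 50 counts was over 2-fold apart, against 0.384% of the 14307 genes at that depth. None was over 1.5-fold apart, against 1.64% of genes. With 31 members, finding none at such low shares is near the background. Kif9, Kif7 and Klc3, or 3 of 31, were over 1.2-fold apart, against 10.4% of genes, a share near the background. Kif7, with 68 and 89 counts, was 1.28-fold higher in replicate 2, and its exact binomial 95% interval of 0.922 to 1.78 held 1. The median log2 ratio of the 17 transport motors was -0.01, with 7 higher and 10 lower in replicate 2, and that of all 18350 genes reaching a mean of 10 counts was 0.00. The median absolute log2 ratio over the same genes was 0.09. For the 9 mitotic motors at that depth the median was 0.19, with 6 higher and 3 lower, from single values of -0.88 (Kif23) to 0.37 (Kif20b). The median was 0.092 in the kallisto layout, and none of their intervals left out 1. Of the 5 dividing-cell markers at the same depth, 4 had the lower value in replicate 2, and the median log2 ratio of the 5 was -0.58. The other marker was the kinesin Cenpe, with a log2 ratio of 0.01. The part of dividing cells in the mitotic values was not tested.

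Counting intervals left out 1 for 5 of the 31 members that reached a mean of 50 counts, against 20.1% of genes at that depth. All 5 were among the 20 members with a mean of 1000 counts or more, against 27.3% of genes at that depth, so their share was near or under the background. Kif13b was 1.12-fold lower in replicate 2, at 1711 and 1570 counts, with an interval of 1.04 to 1.196. Klc2 was 1.06-fold lower, with an interval of 1.02 to 1.10, and Kif5a 1.04-fold lower, with an interval of 1.03 to 1.05. Kif1a was 1.03-fold higher, with an interval of 1.01 to 1.04, and Kif1b 1.04-fold higher, with an interval of 1.02 to 1.05. These folds are of scaled counts. In TPM, Kif1b had the opposite direction, at 155 in replicate 1 and 150.4 in replicate 2. These intervals hold no spread between libraries beyond counting error. The coefficient of variation of that spread was estimated over genes as 4.66% from these 2 libraries, and it is unclear if they came from 2 animals. Kif13b was lower in the library with the lower oligodendrocyte markers, and the part of those cells in its value was not tested.

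**Figure D3:**
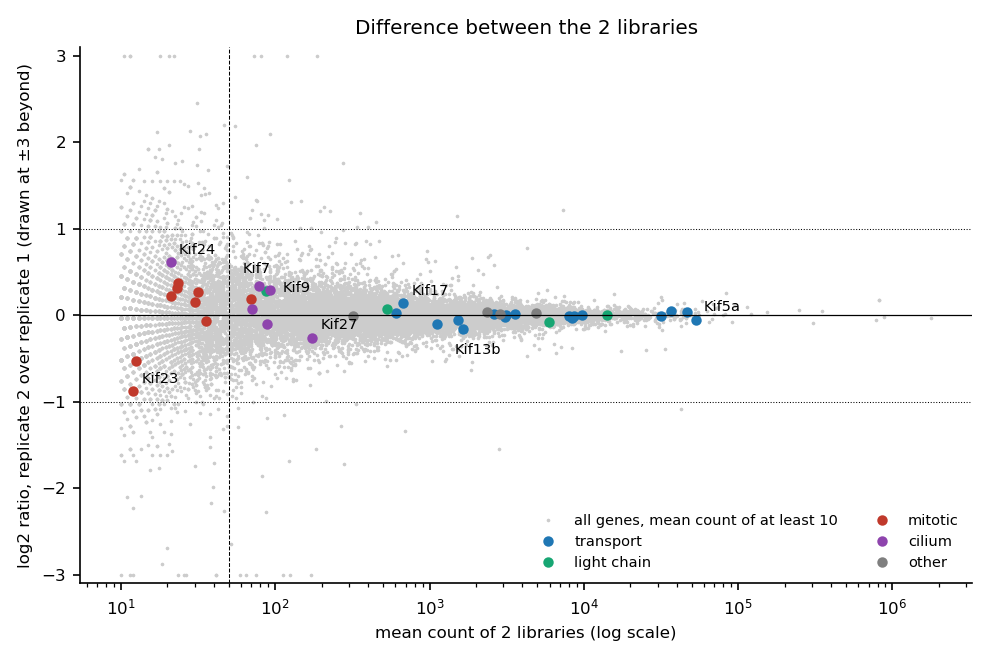
Log2 ratio of replicate 2 over replicate 1 (vertical axis) against mean count (log scale) for all 18350 genes that reach a mean of 10 counts (grey) and the kinesin genes by role, with dotted lines at 2-fold and a dashed line at 50 counts. No kinesin right of the dashed line passes 2-fold, and the transport motors lie between -0.16 and 0.14.

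The TPM of every transport motor differed more between the deposited layouts than between the libraries. The kallisto-layout TPM was 1.60 times the RSEM-layout TPM in the median of the 31 detected members, against 1.67 in 12733 detected protein-coding genes. Over the 17 transport motors the factor ran from 1.49 for Kif3b to 2.77 for Kif5b. As a result the top 2 changed places. Kif1a was at 564 and 555 TPM in the kallisto layout, above Kif5a at 530 and 508. Kif5b, at 157 and 163 TPM, stood above Kif3c and rose to 15.0% ± 0.47 of the summed Kif5 level (SD, n = 2).

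The widest gaps were in 3 rare members. Kif24 was at 11.5 and 14.2 TPM in the kallisto layout, 41.5 times its RSEM-layout mean. The difference lay in a processed transcript of 1151 bases, Kif24-204, which was given 175 and 210 estimated counts by the kallisto layout and 2 and 4 expected counts by the RSEM layout. Kif2c was 30.1 times higher, at 2.47 and 2.65 TPM, with 91.9% and 98.4% of it in the retained-intron transcript Kif2c-203, which was at 0 in the RSEM layout. Kif15 was 5.29 times higher, with its retained-intron transcript Kif15-216 leading. In each of the 3 the added level lay mainly in transcripts that are not annotated as protein-coding. Kif24, Kif2c and Kifc1 were detected in the kallisto layout and not in the RSEM layout, and no member was detected in the RSEM layout alone.

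**Figure D4:**
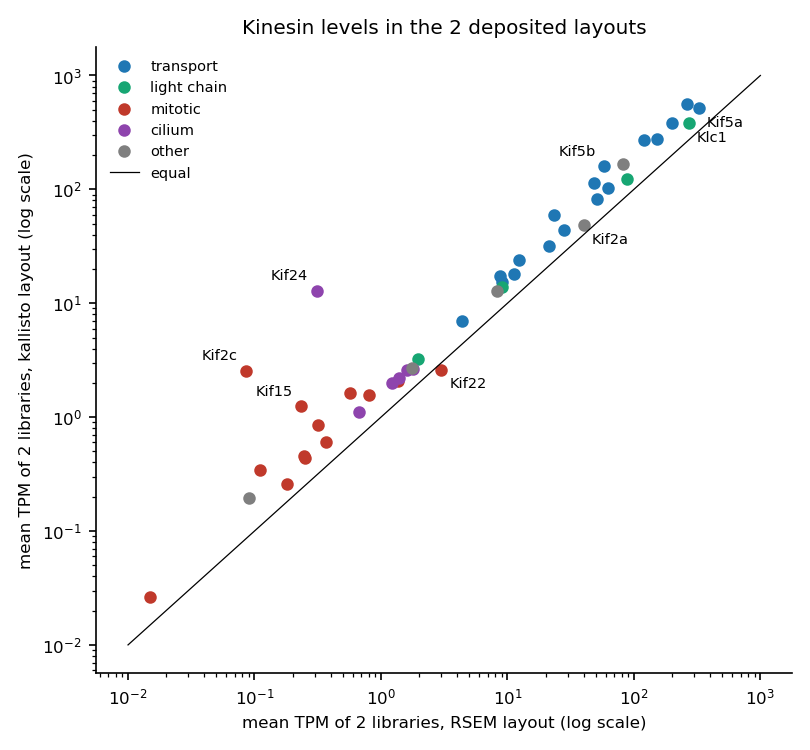
Mean TPM of the 2 libraries in the kallisto layout (vertical axis) against the RSEM layout (horizontal axis), both on log scales, for the 45 kinesin genes above 0, with the line of equal values. Most genes lie in a band just above the line, Kif24 and Kif2c lie far above it, and Kif22 lies below.

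Many members had 1 transcript that led throughout, at a share that depended on the layout. Of the 31 detected members, 20 had the same leading transcript in both libraries and both layouts, among them 12 of 17 transport motors. Within the RSEM layout the leader was the same in both libraries for 29 of 31, the exceptions being Kif19a and Kif21b. Kif5a was nearly a single-transcript gene, with Kif5a-201 at 99.2% in both libraries, and Kif3b has 1 annotated transcript. Kif5c-201 held 88.9% and 87.2% of its gene, Kif5b-201 92.0% and 85.6%, Kif1b-203 82.7% and 84.8% and Kif1a-204 70.5% and 66.3%. In the kallisto layout the same transcripts led at lower shares, 70.8% and 67.8% for Kif5c-201, 45.7% and 41.9% for Kif5b-201, 65.3% and 66.5% for Kif1b-203 and 43.0% and 44.8% for Kif1a-204. Some short transcripts had larger shares in that layout. The 528-base Kif1a-206 held 32.7% and 33.7% of Kif1a, the 572-base processed transcript Kif5b-206 27.8% and 26.9% of Kif5b, and the 396-base processed transcript Kifc2-202 29.1% and 29.1% of Kifc2.

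Klc1, whose splice forms are known to differ at the tail of the protein, was a mixture. Klc1-202 led with 51.6% and 54.2%, followed by Klc1-203 with 20.6% and 18.9% and Klc1-201 with 9.58% and 7.97%. The kallisto layout gave the same order, with 43.4% and 46.4% for Klc1-202. For Klc2 the layouts were at odds. The RSEM layout split it between Klc2-204, at 42.8% and 43.3%, and Klc2-201, at 39.8% and 42.0%, while the kallisto layout gave 91.5% and 92.5% to Klc2-204 and about 0 to Klc2-201. Klc4 and Klc3 had different leaders in each layout, and Klc4-201 fell from 42.6% in replicate 1 to 0.0185% in replicate 2 of the kallisto layout.

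Kif21b was the single transport motor whose leader differed between libraries in the RSEM layout. Kif21b-204, annotated as a nonsense-mediated decay transcript, held 50.3% in replicate 1 and 43.5% in replicate 2 of the RSEM layout, and the protein-coding Kif21b-201 held 32.7% and 43.6%. In replicate 2 they were therefore level. Kif3c, Kif21a, Kifc3 and Kif17 each kept 1 leader within a layout and had another in the other layout. Kif3c-201 held 48.3% and 48.8% in the RSEM layout against 47.9% and 45.8% for Kif3c-205, and Kif3c-205 led with 62.1% and 60.3% in the kallisto layout. Kif21a-204 led with 61.0% and 64.6% in the RSEM layout, and Kif21a-205 with 40.5% and 38.6% in the kallisto layout. Kif17-202 and Kif17-201 were close in the RSEM layout, at 33.2% and 37.5% against 32.8% and 32.8%. Kifc3-201 led with 57.7% and 48.6% in the RSEM layout, where Kifc3-211, the leader of the kallisto layout at 25.8% and 24.5%, was at 0.

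Among the other detected members, Kif2a-206 led with 33.6% and 32.4% in the RSEM layout and Kif2a-204 with 50.1% and 48.7% in the kallisto layout. Kif6 was led in all 4 tables by a retained-intron transcript, Kif6-201, at 51.3% and 69.1% in the RSEM layout. Kif7, just under the detection limit, had all of its RSEM-layout level in Kif7-203 in replicate 1 and all in Kif7-201 in replicate 2. These transcripts are 4577 and 4521 bases long, and the counts behind them were 68 and 89.

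**Figure D5:**
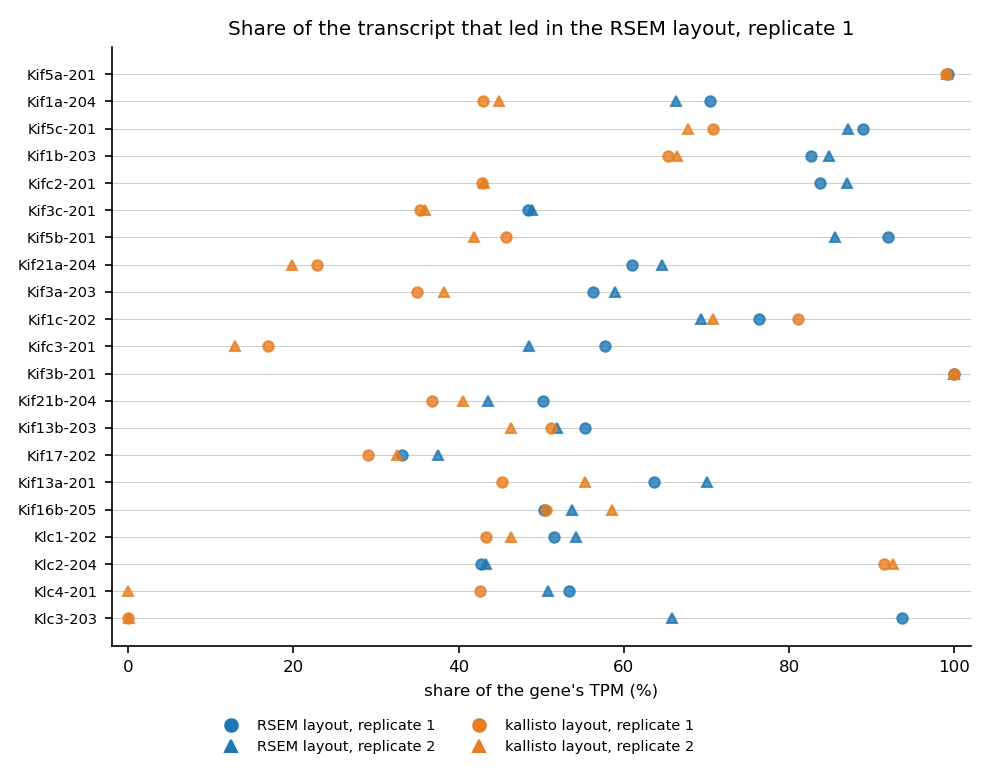
Share of each transport and light-chain gene's TPM (horizontal axis, percent) held by the transcript that led in the RSEM layout of replicate 1, in both libraries and both layouts. Symbols of the same colour, which mark the 2 libraries of a layout, mostly lie together, while the layouts stand apart for many genes, such as Kif5b-201, Kif21a-204, Kifc3-201, Klc2-204 and Klc3-203.

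Overlap with genes on the opposite strand limits some of these values. Exons of 17 members overlap exons of a gene on the other strand in GENCODE M21, and for 8 of them the overlap is at least 500 bases. Among them, Kif3c shares 2617 bases with 1110002L01Rik, Kif20a 1271 with Cdc23, Kif2a 1229 with Dimt1 and Klc3 744 with Ercc2. Kif26b shares 909 bases with Gm16564, Kif7 877 with 9330171B17Rik and Kif4 832 with Pdzd11. The strand setting of the counting is not given in the sources used here, so reads from these stretches may have been shared. Kif5a, Kif1a, Kif5c and Kif1b have no such overlap.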

How the data were processed

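Total RNA of 2 hippocampus libraries was analysed from tables the authors deposited. Per the file headers, the RSEM-layout gene and transcript tables hold expected counts (estimated reads that need not be whole), posterior mean counts, TPM, FPKM and, per transcript, its percent of the gene. The kallisto-layout transcript tables, per the file headers, hold estimated counts and TPM, which were summed by gene. Per the notes deposited with them, build mm10 and GENCODE M21 were used. The aligner, like its version and strand option, is not given in the sources used here.

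Expected counts were rounded to whole numbers. Rows that name no gene (ERCC, phiX and 26248 numbered rows) held 0.493% and 0.490% of counts and were left out. Libraries were scaled with TMM in edgeR 4.0.16 (R 4.3.3), with DESeq2 1.42.0 size factors as an alternative. Log2 ratios used a prior count of 2. The fold rule was tested on simulated data. Intervals came from scipy 1.17.1 and cover counting error. Promoters were RefSeq's, on GRCm38.p6.

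The members, roles and companion lists were chosen with earlier results of these data known. Named in full were members of a role at a mean of at least 20 TPM or the 3 highest, the lowest, any over 1.5-fold apart, and any with unlike leading transcripts. From companion lists, the 2 highest and the lowest were named. Dync1h1, Kifap3, Mki67 and single marker genes were added after their values were seen. With 1 group and 2 libraries there was no test.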

Additional observations from a re-analysis of the deposited data

How the results depend on the processing

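The number of detected members stayed within 1.5 times of 31 in every alternative run, from 22 at a minimum of 5 TPM to 34 in the kallisto layout. It was 31 without either replicate, and 30 without Kif1bp, an alternative added after seeing the data. The transport to mitotic ratio of 196 ranged from 169 to 223 without either replicate, and was 154 with means over members, 117 in the kallisto layout and 125 over members reaching a mean of 10 counts. No member was over 2-fold apart under the other scalings, count types and the minimum of 200. There was 1 (Kif23) at a minimum of 10 counts, and there were 3 at a fold of 1.2. The mitotic median log2 ratio of 0.19 was 0.092 in the kallisto layout, and the transport median lay between -0.01 and 0.00 throughout. The count of 20 members with an unchanged leading transcript was 21 without either replicate. The Kif5a share was 48.8% in the kallisto layout and 57.0% by expected counts, which are not corrected for length. The Kif5b share was 15.0% and 8.94%, and the Kif5c share was 36.2% in the kallisto layout. By expected counts the Klc1 share was 68.2%, Klc2 28.8%, Klc3 0.419% and Klc4 2.57%, and in the kallisto layout Klc3 was 0.618% and Klc4 2.65%. Why the layouts differ was not tested. No paired analysis was possible because there is 1 group of 2 libraries. Depth limits the mitotic members, of which 13 of 14 had a mean count under 50.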
